A study of Mus musculus with 4 samples.

Results

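Trp53 and 9 genes whose transcription p53 is known to drive were followed in ribosome footprints of MLE-12 cells. The 10 genes were picked as a list by Ensembl gene ID, out of the 53465 IDs in the count table. The list was chosen with earlier results of these data known. They comprise Trp53 itself, Cdkn1a, Mdm2, Ccng1, Bax, Bbc3, Phlda3, Trp53inp1, Sesn1 and Zmat3. The table gives counts of ribosome footprints, the short RNA fragments that ribosomes shield from nuclease. A count therefore reflects both how much mRNA a gene has and how densely ribosomes occupy it. The groups were 2 libraries from MLE-12 cells given 5 µM 1-nitropyrene, a nitrated polycyclic compound found in diesel exhaust (replicates 2 and 3), and 2 from control cells without it (replicates 1 and 2), both cultured for 12 h. MLE-12 is an immortalised mouse lung epithelial line used as a stand-in for alveolar type 2 cells, and it carries the SV40 large T antigen, so every group shares that viral protein. The labels do not say whether the libraries of a group are separate cultures. The edgeR p-values and intervals below reflect counting error and the spread between libraries, which may be technical. That spread was taken from a trend over all genes, not from each gene's own libraries.

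As background, p53 is a transcription factor that is kept scarce in unstressed cells because MDM2, a ubiquitin ligase and itself a p53 target, marks it for degradation. After DNA damage p53 accumulates and switches on genes that stop the cell cycle, repair damage, restrain growth signalling or start apoptosis. Large T antigen binds p53 and blocks its activity as a transcription factor, which limits MLE-12 cells as a model of an intact p53 response.

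Few footprints fell on these genes. No footprint was counted on Cdkn1a or Trp53inp1 in any library, and Trp53, Mdm2 and Bbc3 had between 0 and 7 counts in each. Only Ccng1, Bax, Phlda3 and Sesn1 had enough counts to enter the test between 1-nitropyrene and control cells. Of these 4, 0 passed at a Benjamini-Hochberg adjusted p under 0.05, against 17.3% of the 7719 gene IDs tested, 9.68% as higher and 7.58% as lower (edgeR quasi-likelihood F test). Ccng1 and Bax had their higher values in both 1-nitropyrene libraries, 1.66- and 1.45-fold above control, at adjusted p of 0.153 and 0.158 in the same edgeR test. Such a separation of the groups, in either direction, was common, being seen in 57.3% of all gene IDs tested. As these are bulk samples, fewer cells using a gene and fewer footprints per cell cannot be told apart.

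The library totals were 1243186 and 1357034 counts in the 1-nitropyrene libraries and 1261372 and 1136145 in the control libraries. Levels are given as CPM (counts scaled to a common library size) after TMM scaling, which corrects for differences in library composition. On this scale 1 count was worth between 0.761 and 0.860 CPM. A count of 0 allows up to 3 counts, which over both libraries of a group is a level of up to 1.24 CPM in 1-nitropyrene cells and 1.20 CPM in control cells. Such limits and all counting intervals below cover counting error only. Over all gene IDs, 39727 of 53465 had no count in any library. Levels of different genes were not compared with each other, because no coding lengths were used here.

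**Figure D1:**
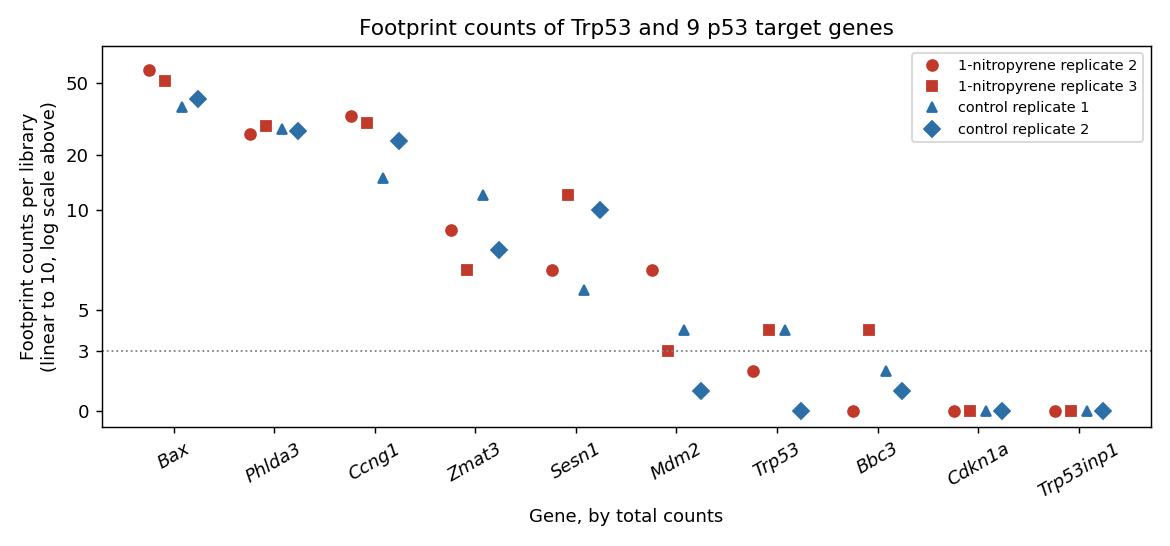
Footprint counts of each gene (y axis, linear up to 10 and logarithmic above) in the 4 libraries, with genes ordered along the x axis by total counts and each point 1 library (1-nitropyrene in red, control in blue). The dotted line marks 3 counts, the most that a count of 0 allows. Cdkn1a and Trp53inp1 lie at 0 in every library, and the red points lie above the blue ones for Bax and Ccng1.

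The upstream sequences of 3 of the genes are shown. Cdkn1a, with no footprint, and Ccng1, with the largest fold change of those tested, carry near matches to the full p53 response element. Bax, with the most counts, carries a single perfect half-site and no such near match, as do some genes not shown. The 250 bases before a RefSeq transcription start (assembly GRCm38.p6) are printed 5′ to 3′ on the gene's strand. For Cdkn1a this is the more upstream of 2 starts. Capitals mark perfect matches to the p53 half-site consensus, and the whole element where a pair of adjoining half-sites matched with at most 1 mismatch.
Cdkn1a, chr17:29090729-29090978, plus strand: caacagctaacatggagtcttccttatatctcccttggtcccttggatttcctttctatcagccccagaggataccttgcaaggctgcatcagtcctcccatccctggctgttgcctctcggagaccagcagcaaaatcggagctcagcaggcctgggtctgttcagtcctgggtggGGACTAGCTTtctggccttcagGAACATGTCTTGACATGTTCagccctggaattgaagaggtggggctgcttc
Ccng1, chr11:40755287-40755536, minus strand: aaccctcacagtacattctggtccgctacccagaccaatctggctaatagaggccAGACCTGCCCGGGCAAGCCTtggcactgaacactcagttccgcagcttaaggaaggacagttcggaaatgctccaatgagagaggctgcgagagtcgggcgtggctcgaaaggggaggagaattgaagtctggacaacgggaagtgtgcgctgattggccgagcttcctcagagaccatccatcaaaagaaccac
Bax, chr7:45466899-45467148, minus strand: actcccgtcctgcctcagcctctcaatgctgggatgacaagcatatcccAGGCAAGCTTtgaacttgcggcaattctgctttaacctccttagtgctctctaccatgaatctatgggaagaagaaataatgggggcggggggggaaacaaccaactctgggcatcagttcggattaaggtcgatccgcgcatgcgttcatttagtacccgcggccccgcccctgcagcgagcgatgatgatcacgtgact

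The consensus reads the same on both strands, so a search of 1 strand covers both. RefSeq start windows of 300 bases (250 before the start and 50 after) were at hand for 8 of the 10 genes, and Trp53inp1 and Zmat3 had none in the table used. The full element of 2 adjoining half-sites with at most 1 mismatch was found in 29 of 32851 windows, or 0.0883%. Among them were the more upstream of 2 Cdkn1a windows, with the element 51 to 32 bases before the start, and that of Ccng1, 195 to 176 bases before it. The other Cdkn1a window had no half-site. Its best element had 5 mismatches, and 76.6% of all windows held one with as few. A perfect half-site alone is common, being held by 8.36% of all windows. Bax had 1, beginning 201 bases before the start, and Mdm2 and Trp53 had 1 each, as did 1 of 2 Sesn1 windows, while the Phlda3 window and the 3 Bbc3 windows had none. The best full element of the Bax window had 3 mismatches, as had that of Trp53, 1 Sesn1 window and 1 Bbc3 window. Of all windows, 6.29% held an element with as few. A match describes the letters of a window and shows no binding, and p53 elements outside these windows were not searched. Cdkn1a and Ccng1 had the best matching windows of the list, and whether such matches relate to footprint counts was not tested.

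Trp53 (ENSMUSG00000059552) encodes p53 and lies at chr11:69580348-69591873 (coordinates of genes are from RefSeq, GRCm38.p6). It had 2 and 4 counts in the 1-nitropyrene libraries and 4 and 0 in the control libraries. These are levels of 1.72 and 3.17 CPM in 1-nitropyrene cells and 3.04 and 0 CPM in control cells. The groups overlapped, and the ratio of 1-nitropyrene to control over the summed counts, 6 against 4, was 1.55 with a 95% counting interval from 0.367 to 7.45. The interval holds a fall to 0.367 of the control level as well as a 7.45-fold rise, so no direction could be told at this depth. The neighbouring gene Wrap53 lies 97 bases away, and RefSeq lists a pseudogene, Trp53-ps, that could share reads with Trp53, so these few counts are uncertain in origin.

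Mdm2 (ENSMUSG00000020184, chr10:117688875-117710758), the ligase that limits p53, had 7 and 3 counts in the 1-nitropyrene libraries and 4 and 1 in the control libraries. The highest count was in a 1-nitropyrene library and the lowest in a control library, but the groups overlapped. Over the summed counts, 10 against 5, the ratio was 2.06 with a 95% counting interval from 0.642 to 7.69. Without a filter on low counts the edgeR test gave a log2 fold change of 1.04 ± 1.02 (SE) and an adjusted p of 0.628.

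Of the targets that act on the cell cycle, Cdkn1a had no footprint and Ccng1 was among the tested genes. Cdkn1a (ENSMUSG00000023067, chr17:29090979-29100722) encodes p21, the inhibitor of cyclin-dependent kinases through which p53 halts the cycle. It had 0 counts in both 1-nitropyrene libraries and 0 in both control libraries, so no fold can be given. The limits set by a count of 0 apply only if footprints on Cdkn1a were counted like those on other genes. Whether the annotation or the read filtering used by the authors has a part in this 0, or in that of Trp53inp1, cannot be told from the files, so no response of p21 translation could be measured in either direction.

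Ccng1 (ENSMUSG00000020326, chr11:40748552-40755309) encodes cyclin G1, which recruits a phosphatase to MDM2. It had 33 and 30 counts in the 1-nitropyrene libraries, against 15 and 24 in the control libraries. These are levels of 28.4 and 23.8 CPM in 1-nitropyrene cells and 11.4 and 20.2 CPM in control cells. Both 1-nitropyrene libraries thus exceeded both controls, and the controls differed from each other by more than the 1-nitropyrene libraries did. The mean level was 26.1 ± 3.28 CPM in 1-nitropyrene cells and 15.8 ± 6.25 CPM in control cells (SD, n = 2 each). The log2 fold change was 0.73 ± 0.36 (SE), with a 95% interval from 0.020 to 1.44, and it did not pass the test (edgeR, unadjusted p = 0.0439, adjusted p = 0.153). The size of the difference rested on which control was used, since it was 0.36 on the log2 scale without control replicate 1 and 1.19 without control replicate 2 (edgeR adjusted p = 0.654 and 0.0930).

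Of the targets that act in apoptosis, Bax had the most counts of the list. Bax (ENSMUSG00000003873, chr7:45461695-45466903) encodes a BCL-2 family protein that opens the outer mitochondrial membrane. Its counts were 59 and 51 in the 1-nitropyrene libraries and 37 and 41 in the control libraries, or 50.8 and 40.4 CPM in 1-nitropyrene cells against 28.1 and 34.6 CPM in control cells. The groups did not overlap, although the gap between the nearest libraries was smaller than the spread within either group. The mean level was 45.6 ± 7.33 CPM in 1-nitropyrene cells and 31.4 ± 4.56 CPM in control cells (SD, n = 2 each). The log2 fold change of 0.54 ± 0.27 (SE) had a 95% interval from 0.0099 to 1.07 and did not pass the test (edgeR, unadjusted p = 0.0459, adjusted p = 0.158).

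Bbc3 (ENSMUSG00000002083, chr7:16308398-16318334) encodes PUMA, a BH3-only protein that sets off BAX and its relatives. It had 0 and 4 counts in the 1-nitropyrene libraries and 2 and 1 in the control libraries. The 1-nitropyrene libraries held both the lowest and the highest value, and over the sums of 4 and 3 counts the ratio was 1.37 with a 95% counting interval from 0.233 to 9.39. Trp53inp1 (ENSMUSG00000028211, chr4:11156441-11174379), whose product takes part in p53-dependent death and autophagy, had 0 counts in both 1-nitropyrene libraries and 0 in both control libraries.

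Phlda3 (ENSMUSG00000041801, chr1:135766085-135769134) encodes a pleckstrin homology protein that opposes the survival kinase AKT. Its counts were 26 and 29 in the 1-nitropyrene libraries and 28 and 27 in the control libraries, or 22.4 and 23.0 CPM in 1-nitropyrene cells and 21.3 and 22.8 CPM in control cells. The 4 libraries lay close together and the groups overlapped. The mean level was 22.7 ± 0.422 CPM in 1-nitropyrene cells and 22.0 ± 1.05 CPM in control cells (SD, n = 2 each). The fold change was 1.03 with a 95% interval from 0.645 to 1.65, which leaves out a doubling or a halving of the level (edgeR adjusted p = 0.957).

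The remaining genes act in metabolism and RNA binding. Sesn1 (ENSMUSG00000038332, chr10:41810574-41908436) encodes sestrin 1, which restrains the growth kinase complex mTORC1. It had 7 and 12 counts in the 1-nitropyrene libraries and 6 and 10 in the control libraries, so the groups overlapped, with the lowest count in a control library and the highest in a 1-nitropyrene library. Its fold change was 1.21 with a 95% interval from 0.540 to 2.73 (edgeR adjusted p = 0.810), and its sign turned when single libraries were left out. Zmat3 (ENSMUSG00000027663, chr3:32334792-32365665) encodes a zinc finger protein that binds RNA. It had 9 and 7 counts in the 1-nitropyrene libraries and 12 and 8 in the control libraries. Its summed counts of 16 against 20 gave a ratio of 0.825, with a 95% counting interval from 0.400 to 1.68. Zmat3 overlaps the noncoding gene 4930429B21Rik in RefSeq, and how reads in such overlaps were counted is not given in the sources used here.

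A filter on low counts decided which genes were tested. It required a raw level of 7.99 CPM, or 10 counts in a library of median size, in 2 libraries. Sesn1 reached it in 2 libraries, 1 of each group, and Zmat3 in 1. Both lie beside the threshold with nearly equal totals of 35 and 36 counts.

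**Figure D2:**
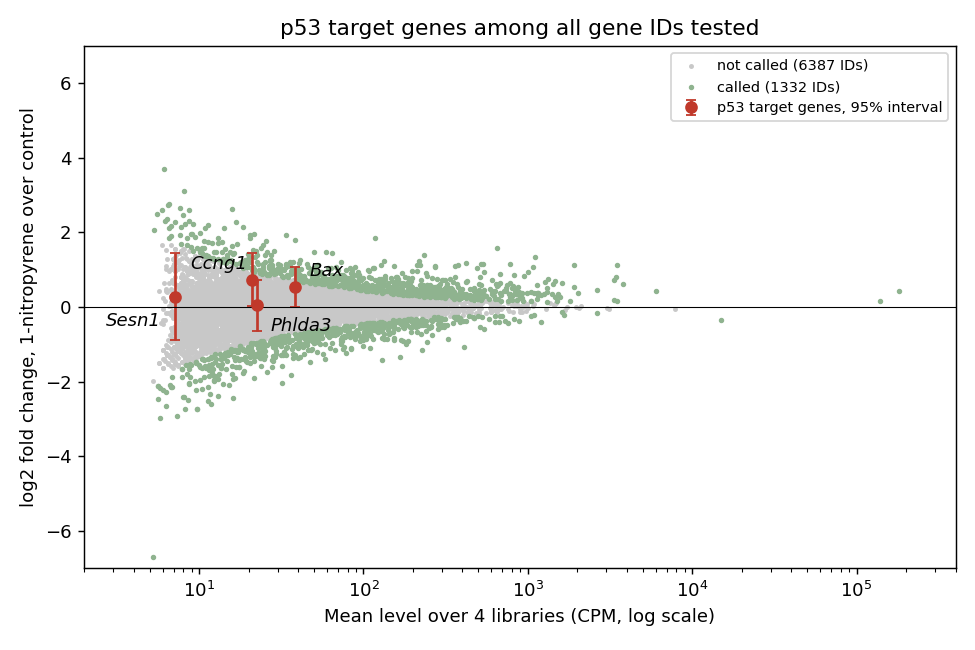
Log2 fold change of 1-nitropyrene over control (y axis) against mean level in CPM (x axis, log scale) for all 7719 gene IDs tested, with the 1332 called IDs in green and the others in grey. Red points are Ccng1, Bax, Phlda3 and Sesn1 with their 95% intervals. All 4 lie among the grey points of their abundance.

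Whether a gene is called depends on its counts as well as its change, so the 4 tested genes were set beside gene IDs with a mean count within 1.5 times of their own. Of the 1997 such IDs for Bax, 12.2% were called, and the smallest called rise among them was 1.54-fold, above the 1.45-fold of Bax. For Ccng1 10.1% of 2225 IDs were called and the smallest called rise was 1.81-fold, against 1.66-fold for Ccng1 itself. For Phlda3 and Sesn1 the smallest called rises were 1.77-fold and 2.72-fold. Rises smaller than these were not called at the depth of these genes. At an unadjusted p under 0.05, 2 of the 4 genes passed, against 29.9% of all gene IDs tested and 15.8% that passed as higher. The groups did not overlap for 2 of the 4, against 57.3% of all gene IDs tested.

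Other tests gave the same count of 0 among these genes. The limma-voom test called 0 of 4. The Wald test of DESeq2 left all 4 without an adjusted p after its own filter on low counts, and it called 0 of 4 on the gene IDs that edgeR tested, with adjusted p of 0.591 for Ccng1 and 0.580 for Bax. With no filter, 8 of the genes could be tested by edgeR and 0 were called.

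Ratios between genes within a library do not depend on the scaling. The ratio of Bax to Phlda3 counts was 2.27 and 1.76 in the 1-nitropyrene libraries, against 1.32 and 1.52 in the control libraries. The ratio of Ccng1 to Phlda3 counts was 1.27 and 1.03 in the 1-nitropyrene libraries, against 0.536 and 0.889 in the control libraries. Both ratios were higher in each 1-nitropyrene library than in either control. Phlda3 had the smallest fold change of the tested genes, so ratios to it mostly repeat the changes of Bax and Ccng1. Ratios to Sesn1, which had few counts, were left out. The ratio of Bax to Ccng1 was 1.79 and 1.70 in the 1-nitropyrene libraries and 2.47 and 1.71 in the control libraries, which overlapped. An exact two-sided permutation test with 2 libraries in each group cannot give a p below 0.333, and it gave 0.333 for both ratios to Phlda3 and 0.667 for Bax to Ccng1. With that floor the test says nothing for or against a difference in change between these genes, and the ratios are given as values.

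Summed over the list, footprints numbered 143 and 140 in the 1-nitropyrene libraries and 108 and 112 in the control libraries. The summed level was 123 and 111 CPM in 1-nitropyrene cells and 82.1 and 94.5 CPM in control cells. The means were 117 ± 8.60 CPM and 88.3 ± 8.73 CPM in 1-nitropyrene and control cells (SD, n = 2 each), a 1.32-fold difference given as a description. Scaled to total counts instead, the sum was 115 and 103 CPM in the 1-nitropyrene libraries, against 85.6 and 98.6 CPM in the control libraries. The exact 95% binomial intervals of the nearest libraries, 86.8 to 122 CPM in 1-nitropyrene replicate 3 and 81.2 to 119 CPM in control replicate 2, overlapped widely. Bax, Ccng1 and Phlda3 made up between 74.1% and 82.5% of the summed counts in each library. Without Bax and Ccng1 the other genes summed to 51 and 59 counts in the 1-nitropyrene libraries and 56 and 47 in the control libraries. These raw counts overlapped between the groups. After TMM scaling the levels were 43.9 and 46.7 CPM in 1-nitropyrene cells and 42.6 and 39.7 CPM in control cells. The groups thus lay close, and that they did not overlap depended on the scaling.

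**Figure D3:**
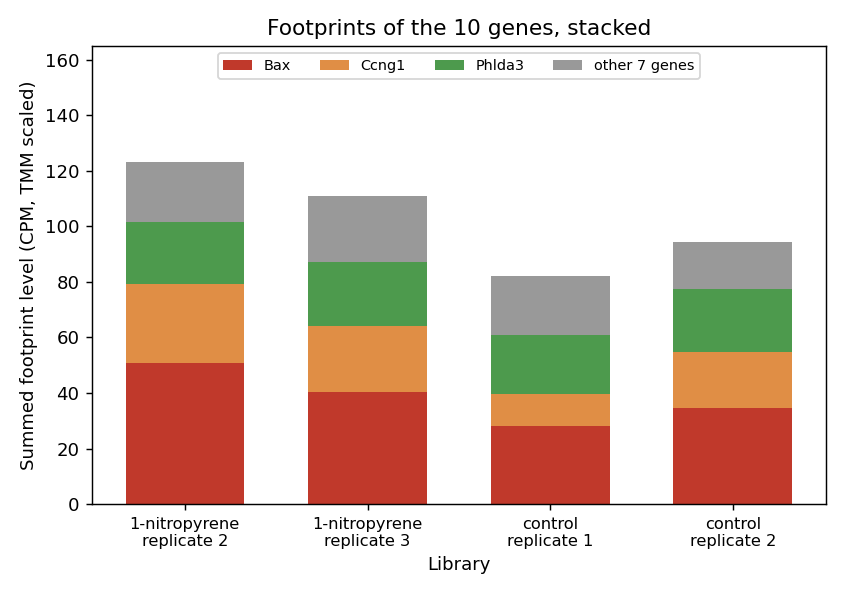
Summed footprint level of the 10 genes (y axis, CPM after TMM scaling, not corrected for gene length) in each library (x axis), stacked by gene. Bars reach 123 and 111 CPM in the 1-nitropyrene libraries and 82.1 and 94.5 CPM in the control libraries, and the Bax and Ccng1 segments account for most of the gap.

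The scaling moved all 4 tested genes alike. With total counts in place of TMM the median log2 fold change of all gene IDs tested was -0.17, against -0.0076 with TMM. The log2 fold changes under total counts were 0.57 for Ccng1, 0.38 for Bax, 0.12 for Sesn1 and -0.12 for Phlda3, so Phlda3 changed sign. Relative to that median, each gene kept nearly its place. A pair of gene IDs held between 32.9% and 33.0% of all counts in the 1-nitropyrene libraries and 29.7% in each control library. Without this pair, TMM scaling gave log2 fold changes of 0.73 for Ccng1, 0.54 for Bax, 0.28 for Sesn1 and 0.043 for Phlda3, each the same to 2 digits as with it.

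**Figure D4:**
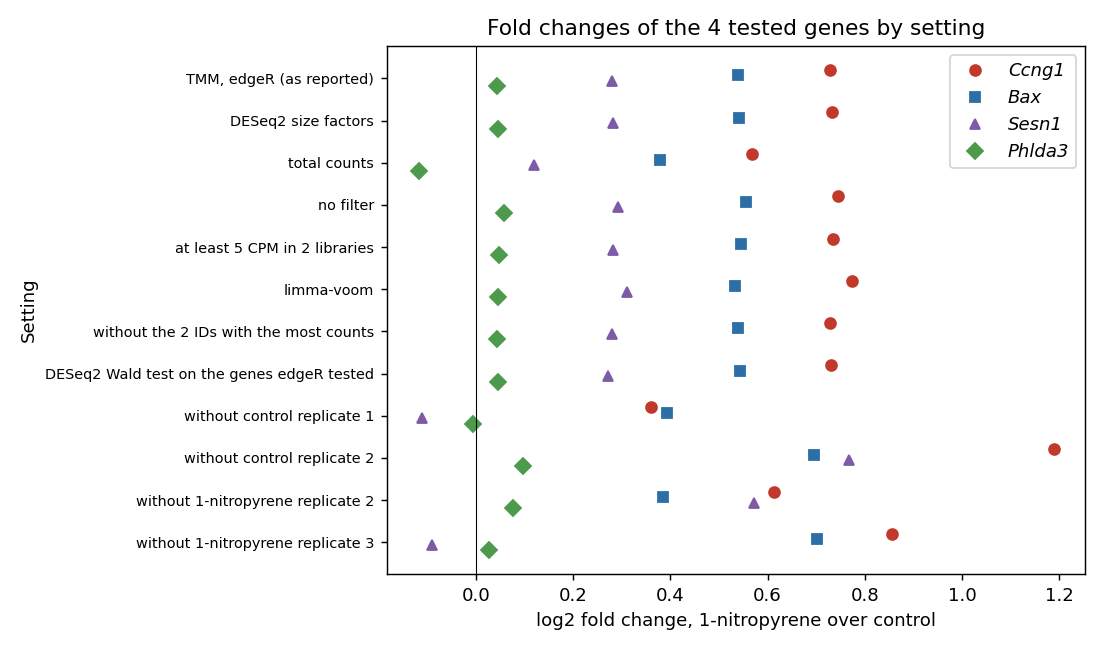
Log2 fold change of 1-nitropyrene over control (x axis) for Ccng1, Bax, Sesn1 and Phlda3 under each setting (y axis). Ccng1 and Bax stay above 0 in every setting drawn, between 0.36 and 1.19 and between 0.38 and 0.70, while Phlda3 and Sesn1 fall on both sides of 0, and no point passed the test.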

How the data were processed

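Ribosome footprints of 4 libraries were analysed. The authors deposited 1 table of raw counts per Ensembl gene ID, with no normalization. The submitters' processing notes name mm10 as the build and, as tools, featureCounts, HISAT2, Bowtie, cutadapt and DESeq2. Roles, versions, settings, the annotation and the handling of strand, shared reads and fragment length were not given in the sources used here. Per the labels' protocols, cells were washed with cycloheximide, ribosomal RNA was depleted and a small RNA library kit was used, so that some fragments may not come from ribosomes.

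The members and lists were chosen with earlier results of these data known. Names of the 10 genes come from the list itself; the other IDs carry no symbols, so the planned look at other p53 targets, p53 regulators, the BCL-2 family, cell cycle genes, genes of like pattern and cell type markers was not run. The rule for named genes thus left the 10 listed genes. The labelled cell type was not checked against markers. Matched RNA libraries were not analysed here, so translational efficiency was not measured.

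Genes were filtered with filterByExpr (minimum count 10, minimum total 15), scaled with TMM and tested in edgeR 4.0.16 under R 4.3.3 with the quasi-likelihood F test over 7719 IDs, with Benjamini-Hochberg adjustment and a threshold of 0.05. SEs are the log2 fold change over the root of F, and the prior degrees of freedom were infinite, so the spread came from the trend over genes. Counting intervals of ratios are exact binomial, conditional on the total. Alternatives used limma 3.58.1 and DESeq2 1.42.0. The scripts were tested on simulated data. The promoter search used Python 3.11.15.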

Additional observations from a re-analysis of the deposited data

How the results depend on the processing

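The count of called genes on the list was 0 under every alternative run: total counts or DESeq2's size factors, at least 5 CPM in 2 libraries or no filter, limma-voom, the DESeq2 Wald test (which gave these genes no adjusted p after its own filter), an added threshold of 1.5-fold, removal of the 2 most counted IDs, and removal of each library. With 0 called from the start, this says little about stability. Ccng1 and Bax were higher in 1-nitropyrene cells in all 11 alternatives that gave an adjusted p, at log2 fold changes of 0.36 to 1.19 and 0.38 to 0.70 and adjusted p of 0.0930 to 0.654 and 0.142 to 0.580. Because the groups did not overlap for Ccng1 and Bax, leaving out 1 library could hardly turn their sign. This agreement of sign therefore also says little about stability. Phlda3 turned to -0.12 with total counts and to -0.0066 without control replicate 1, within a range of -0.0066 to 0.096 when single libraries were left out. Sesn1 turned to -0.11 without control replicate 1 and to -0.091 without 1-nitropyrene replicate 3, within a range of -0.11 to 0.77. The cause was not tested. The summed level kept a log2 ratio of 0.33 to 0.51 without any single gene and was 0.24 with total counts, and without Ccng1 and Bax together, an alternative chosen after seeing the data, it was 0.14.

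Over all gene IDs 1332 were called, 747 higher and 585 lower. Total counts gave 410 higher and 1098 lower. The DESeq2 Wald test called 311 (234 higher, 77 lower), and 345 (243 and 102) on the IDs edgeR tested, added after seeing the data. At least 1.5-fold left 835, of which 411 were higher. Fits without 1 library, which take the single sample left in a group to vary as the other group does, gave 572 to 834 in all, 382 to 480 higher and 190 to 354 lower. Of the calls, 56.1% were higher with TMM and 27.2% with total counts. No paired analysis was possible because replicate 2 is the sole number that both groups have. The alternatives for the other gene lists were not run. Depth limits Trp53, Mdm2, Bbc3 and Zmat3 to wide counting intervals. For Cdkn1a and Trp53inp1 there are upper limits alone, which apply only if their footprints were counted like those on other genes.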
